A study of Mus musculus with 7 samples.

Results

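Regions of open chromatin whose nearest annotated start belongs to a microRNA gene were examined in sorted mouse β cells that had lost the chromatin remodelers CHD3 and CHD4. Members were the rows of the deposited table of differentially accessible chromatin (DAC) regions whose mouse gene symbol starts with Mir followed by a digit. That rule took 665 of 61288 listed regions, assigned to 369 microRNA genes or their host transcripts. Bulk ATAC-seq, in which the transposase Tn5 cuts and tags open DNA, was compared between Chd3/4Δβ (3 libraries, labelled Chd3-4Db) and Control (4 libraries). Chd3/4Δβ males carried floxed Chd3 and Chd4 alleles together with the tdTomato reporter and MIP-CreERT, a tamoxifen-inducible Cre driven by the mouse insulin promoter, whereas Control males carried wild-type Chd3 and Chd4 with the same reporter and the same Cre. Tamoxifen was given to both groups, and Tomato-positive cells were sorted from the islets, so a cell with the reporter on need not have lost every floxed allele. Nothing in the labels ties each library to an animal of its own, and the p-values below therefore rest on library-to-library spread that may be technical in part. Column headers of the deposited values differ in form between and within the groups, and what that reflects is not given. Any difference in preparation or sequencing that followed the groups could not be told apart from genotype.

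CHD3 and CHD4 are ATPases of the NuRD complex, which shifts nucleosomes and removes acetyl groups from histones, and which can close as well as open regulatory DNA. A microRNA is cut from a hairpin in a longer transcript by Drosha and Dicer, is loaded into an Argonaute protein, and pairs through its seed, bases 2 to 8 from its 5′ end, with messenger RNAs that are then repressed. Some microRNA genes have promoters of their own, and many lie inside the introns of protein-coding genes and are made from the host transcript. Wherever hairpin coordinates were held, the annotated start of a microRNA gene was the start of its hairpin, not of the longer transcript. Promoter below is the class deposited for a region, and where transcription of those genes starts is not given. In β cells, miR-375 and miR-7 are known as abundant microRNAs that restrain insulin secretion, while miR-9, miR-124, miR-128 and miR-218 are known from neurons. Accessibility near a microRNA gene is not a measure of the microRNA, and no microRNA was measured here.

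Mature sequences were taken from RefSeq (GRCm38.p6), which held at least 1 for 316 of the 369 symbols. Each is printed 5′ to 3′ in lower case with the seed in capitals. The first set holds microRNAs of neurons whose genes had the more accessible regions described below.
miR-9-5p: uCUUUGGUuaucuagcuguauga
miR-9-3p: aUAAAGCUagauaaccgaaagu
miR-128-3p: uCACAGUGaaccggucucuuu
miR-129-5p: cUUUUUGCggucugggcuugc
miR-129b-5p: gCUUUUUGggguaagggcuucc
miR-153-3p: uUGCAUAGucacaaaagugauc
miR-218-5p: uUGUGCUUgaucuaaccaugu
The 2 arms of the miR-9 hairpin have different seeds, and so do miR-129-5p and miR-129b-5p. The hairpin of Mir129b lies on the other strand of the hairpin of Mir129-2, and ATAC-seq has no strand, so a region there cannot be told apart between them.

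The second set shows β-cell and islet microRNAs, ordered by seed, because genes that share a family number did not always share a seed.
miR-30a-5p: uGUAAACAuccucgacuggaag
miR-30c-5p: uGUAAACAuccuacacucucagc
miR-30e-5p: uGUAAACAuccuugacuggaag
miR-30f: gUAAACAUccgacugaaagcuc
miR-26a-5p: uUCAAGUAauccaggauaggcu
miR-26b-5p: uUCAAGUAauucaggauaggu
miR-148a-3p: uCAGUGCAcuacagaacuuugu
miR-148b-3p: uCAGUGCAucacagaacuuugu
miR-29a-3p: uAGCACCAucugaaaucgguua
miR-29b-3p: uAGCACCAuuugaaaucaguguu
miR-200c-3p: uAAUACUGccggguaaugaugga
miR-146a-5p: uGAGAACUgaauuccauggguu
miR-34a-5p: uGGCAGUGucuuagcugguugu
miR-7a-5p: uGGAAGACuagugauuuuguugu
let-7j: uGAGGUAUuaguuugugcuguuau
let-7k: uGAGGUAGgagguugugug
The miR-30a, miR-30c and miR-30e 5p arms share 1 seed, and miR-30f, cut from the opposite strand of the Mir30e locus, has its seed shifted by a base. The genes listed as Mir7j and Mir7k encode let-7j and let-7k, whose seeds differ from that of miR-7a-5p. They are called let-7 genes below, but the islet list went by the number in the symbol and counts them with the miR-7 genes.

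The third set holds the Mir344 genes, near-copies of each other on chromosome 7, shown because 2 of them had a called gain over the hairpin.
miR-344-3p: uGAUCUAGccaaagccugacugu
miR-344c-3p: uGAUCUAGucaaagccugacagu
miR-344b-3p: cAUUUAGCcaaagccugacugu
miR-344f-3p: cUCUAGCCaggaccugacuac
miR-344-5p: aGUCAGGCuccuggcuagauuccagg
miR-344f-5p: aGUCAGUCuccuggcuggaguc
The 3p seed is the same in miR-344 and miR-344c and differs in miR-344b and miR-344f. Among all members, 31 seeds were shared by 2 or more genes, and 61 genes shared a seed with another member.

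The deposited values implied library sizes of 17772951 to 44026681 reads in Chd3/4Δβ and 17629713 to 42439029 reads in Control. Over the members, log2 accessibility correlated at 0.92 to 0.97 among Chd3/4Δβ libraries and at 0.95 to 0.96 among Control libraries. Replicate 3 of Chd3/4Δβ stood apart: it was the library nearest to Control in 144 of the 249 more accessible members (57.8%, beside 54.5% of all such regions) and in 79 of the 129 less accessible members (61.2%, beside 67.7%). It was also the shallowest of its group. All 8 β-cell marker genes checked (Ins1, Ins2, Pdx1, Nkx6-1, Mafa, Slc2a2, Ucn3, Iapp) had listed regions, and the most open region of each averaged 18.4 to 104.7 CPM (reads in the region scaled to a common library size) in Chd3/4Δβ and 38.4 to 192 CPM in Control. Among markers of other cells, 4 of 4 α-cell, 3 of 3 endothelial and 2 of 2 mesenchymal genes had listed regions, at summed levels of 42.1, 46.5 and 19.4 CPM in Chd3/4Δβ and 44.1, 32.6 and 4.89 CPM in Control. The acinar, δ-cell and immune lists (4, 2 and 2 genes) each had 1 gene with a listed region, with summed levels of 1.99, 3.19 and 6.96 CPM in Chd3/4Δβ and 0.788, 1.44 and 4.72 CPM in Control. Their part in the results below was not tested.

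Of the 665 members, 249 were more accessible and 129 less accessible in Chd3/4Δβ, and 287 passed neither cut. A region was called when the edgeR quasi-likelihood adjusted p was under 0.05 and the log2 fold change was at least 1 in size. Every listed region had already been selected for a difference between these same groups, so the counts describe how the listed regions divide. In all listed regions 37.0% were more accessible and 20.4% less accessible by the same rule, close to the 37.4% and 19.4% of the members, and this division is therefore not a feature of microRNA loci. Every Chd3/4Δβ library lay above every Control library in 340 members and below every one in 245, beside 49.3% and 38.8% of all listed regions. Groups that do not overlap, stated for single regions below, are therefore common among listed regions and add no support of their own. By the adjusted p alone, 364 members were more and 274 less accessible, beside 52.6% and 44.9% of all listed regions. The median log2 fold change was 0.65 over the members and 0.56 over all listed regions. Scaling moved it: with TMM (trimmed mean of M values) factors the median of all listed regions was 0.35, with RLE (relative log expression) factors 0.25 and with cyclic loess 0.14. The split of called members changed accordingly, to 208 more and 186 less accessible with TMM, 198 and 209 with RLE, and 162 and 168 with cyclic loess. Changes below are on the deposited library sizes and are best read against the median of 0.56. Where a small loss below turned positive, it did so with cyclic loess scaling only, not with TMM or RLE factors. Without Chd3/4Δβ replicate 3, 258 members were more and 153 less accessible.

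**Figure D1:**
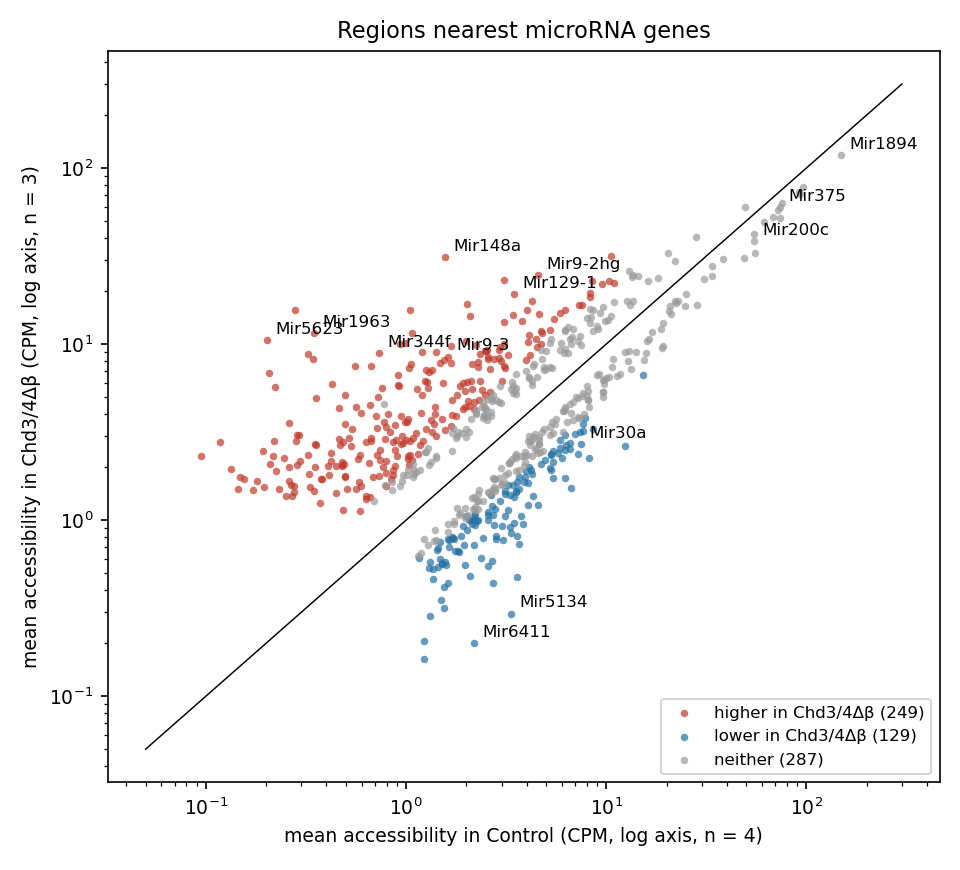
Mean accessibility of the 665 regions nearest microRNA genes in Chd3/4Δβ (vertical axis, n = 3) and Control (horizontal axis, n = 4), in CPM on log axes. Each dot is a region, red where it was called more accessible in Chd3/4Δβ (249), blue where less accessible (129) and grey otherwise (287). The line marks equal values, and the empty band along it is left by the selection of listed regions. The most open regions, such as those of Mir1894 and Mir375, lie just below the line, a side that turned with cyclic loess scaling but not with TMM or RLE factors.

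The median change differed with position, in the members as in the whole table apart from exons. Among 54 promoter members the median log2 fold change was -0.32, beside -0.31 over all 6643 listed promoter regions. Of these members 15 were more accessible (27.8%, beside 22.1% of all promoter regions) and 12 less accessible (22.2%, beside 8.94%). The promoter members were less open than all listed promoter regions. Their median was 5.25 CPM in Chd3/4Δβ, beside 15.1 CPM, and 4.70 CPM in Control, beside 11.0 CPM, so these shares are not compared at like levels. Intergenic members had a median of 0.87, beside 0.90 over all intergenic regions, with 78 of 182 more accessible (42.9%, beside 46.9%) and 29 less accessible (15.9%, beside 18.5%). Intronic members, the largest class, had a median of 0.60, beside 0.46, with 136 of 359 more accessible (37.9%, beside 35.0%) and 75 less accessible (20.9%, beside 24.0%). The 24 exonic members had a median of 0.54, beside -0.34 over all exonic regions, with 11 more accessible (45.8%, beside 27.6%) and 3 less accessible (12.5%, beside 19.7%). At transcription termination sites the median was -0.53, beside -0.40, with 9 of 46 members more accessible (19.6%, beside 34.1%) and 10 less accessible (21.7%, beside 24.7%). These shares were not tested against each other. By distance, the 78 members within 1000 bases of the annotated start had a median of -0.34, with 19 more accessible (24.4%, beside 22.5% of all regions at that distance) and 15 less accessible (19.2%, beside 10.2%). These members too were less open, with a median of 4.80 CPM in Control, beside 9.13 CPM. The 41 members beyond 100000 bases had a median of 0.95, with 19 more accessible (46.3%, beside 46.9%) and 4 less accessible (9.76%, beside 22.3%). Regions of the same distances in the whole table had medians of -0.31 and 0.90.

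Most members did not lie at the annotated start of a microRNA gene. The median distance between the centre of a member and the annotated start was 9454 bases, and 415 members had their centre inside a RefSeq protein-coding gene. Of the 369 symbols, 221 had a single region. Among the 148 with several regions, 70 had only gains among their called regions, 24 only losses, 34 both and 20 no called region. Genes outside the members were not divided in this way. Gains outnumbered losses over all listed regions too (37.0% and 20.4%), so this division is not shown to be particular to microRNA genes.

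The members with the largest gains lay mainly in introns of protein-coding genes or between genes. The largest gains and losses were named only among called members whose libraries did not overlap between the groups. The largest was a region at chr19:57954037-57954581, in an intron of Atrnl1 and 96858 bases upstream of Mir5623. It had 11.0, 10.4 and 10.2 CPM in Chd3/4Δβ, against 0.284, 0.380, 0.0478 and 0.0943 CPM in Control. Control libraries held only 5, 7, 1 and 4 reads there, so the fold rests on few Control reads, while the groups stood far apart (log2 fold change 5.88 ± 0.33, adjusted p = 5.7e-12). Next came Mir694, inside Ccbe1 on chromosome 18, with 15.8, 16.96 and 13.8 CPM in Chd3/4Δβ, against 0.227, 0.271, 0.287 and 0.330 CPM in Control at a region 3909 bases upstream of its start (log2 fold change 5.73 ± 0.24, adjusted p = 1.6e-13). A second Mir694 region, 17267 bases upstream, rose as well (log2 fold change 4.61). Both regions were almost closed in every Control library. Listing required CPM above 1 in 3 libraries, so regions this low in Control could be listed only through Chd3/4Δβ. The same holds for every region below that was under 1 CPM in each Control library.

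Mir1963 lies within Ryr1, which encodes the ryanodine receptor of skeletal muscle, a calcium release channel. Its promoter region at chr7:29084179-29084859 had 12.9, 14.04 and 7.82 CPM in Chd3/4Δβ, against 0.227, 0.380, 0.383 and 0.401 CPM in Control (log2 fold change 5.01 ± 0.28, adjusted p = 4.9e-12). An exonic region 6447 bases upstream of Mir1963 had 9.59, 8.16 and 6.86 CPM in Chd3/4Δβ, against 0.397, 0.651, 0.0478 and 0.283 CPM in Control (log2 fold change 4.64). At both regions, no overlap between the groups was a condition for being named.

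Mir6394, inside the teneurin gene Tenm4, had members among the largest gains and the largest losses. A region 2619 bases upstream had 6.04, 7.11 and 7.31 CPM in Chd3/4Δβ, against 0.340, 0.109, 0.143 and 0.236 CPM in Control (log2 fold change 4.99 ± 0.31, adjusted p = 2.3e-11). Another, 20306 bases upstream, had 2.27, 2.41 and 3.21 CPM in Chd3/4Δβ, against 9.47, 11.8, 13.6 and 14.96 CPM in Control (log2 fold change -2.28 ± 0.21, adjusted p = 7.7e-09). The gain and the loss lay in introns of the same gene, and no overlap between the groups was again a condition for naming them. The remaining top gains were near Mir2136, Mir6236 and Mir6539, with log2 fold changes of 4.67, 4.63 and 4.59.

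Losses were smaller in size than gains at the extremes. The largest was at chr17:24237299-24238105, at the end of the cyclin F gene Ccnf and 3098 bases upstream of Mir5134, with 0.227, 0.205 and 0.450 CPM in Chd3/4Δβ, against 2.67, 3.26, 3.73 and 3.75 CPM in Control (log2 fold change -3.64 ± 0.35, adjusted p = 1.6e-08). Mir6411 followed, with 0.136, 0.128 and 0.338 CPM in Chd3/4Δβ, against 1.42, 3.04, 1.58 and 2.71 CPM in Control at an intergenic region (log2 fold change -3.63 ± 0.44, adjusted p = 4.0e-07). An intergenic region near Mir6387 had 0.454, 0.513 and 0.450 CPM in Chd3/4Δβ, against 3.29, 3.31, 3.78 and 3.96 CPM in Control (log2 fold change -2.91 ± 0.29, adjusted p = 3.0e-08). These 3 regions were below 1 CPM in every Chd3/4Δβ library and above it in every Control library. Listing required CPM above 1 in 3 libraries, so regions this low in Chd3/4Δβ could be listed only through Control.

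Other large losses were near Mir876, in an intron of Lingo2 (-2.87), Mir6354 (-2.69), Mir6403, in Man1c1 (-2.65), Mir3963 (-2.38) and Mir5099 (-2.36), each given as a log2 fold change. Mir103-1, which encodes a microRNA known to affect insulin sensitivity and lies inside the pantothenate kinase gene Pank3, lost accessibility 2662 bases upstream of its start. That region had 0.159, 0.282 and 0.506 CPM in Chd3/4Δβ, against 1.19, 1.63, 1.86 and 1.48 CPM in Control (log2 fold change -2.44 ± 0.38, adjusted p = 1.3e-05).

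The 5 most open members lay at promoters or transcript ends inside protein-coding genes, and none of them was called. Mir1894 at Ppp1r10, which encodes a regulatory subunit of protein phosphatase, had 123, 128 and 105 CPM in Chd3/4Δβ, against 152, 141, 148 and 158 CPM in Control. Mir207 at Dnaja1, a co-chaperone gene, had 80.7, 74.8 and 79.7 CPM in Chd3/4Δβ, against 89.7, 90.7, 95.3 and 109 CPM in Control. Mir5133 at Glce, Mir5620 at Clcn4 and Mir6976 at Srf averaged 72.7, 71.1 and 63.4 CPM in Chd3/4Δβ and 92.2, 92.5 and 75.5 CPM in Control. The log2 fold changes of these 5 regions ran from -0.38 to -0.25. All 5 turned positive with cyclic loess scaling, and none did with TMM or RLE factors.

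Islet microRNAs had 56 members at 28 genes, of which 18 were more accessible (32.1%, beside 37.0% of all listed regions), 9 less accessible (16.1%, beside 20.4%) and 29 uncalled. Their median log2 fold change was 0.18, beside 0.56 over all listed regions. These counts include the let-7 genes Mir7j and Mir7k, which entered the list by the number in their symbols. Regions near the hairpins of the best-known β-cell microRNAs, classed as promoters, stayed open in both groups. Called changes lay mostly at other members of the list or at distal regions. The list was taken from general knowledge of islets with earlier results of these data known, so it is a description. It includes the miR-9, miR-124 and miR-153 genes, whose regions and gains are counted again in the neural list below.

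Mir375 encodes the islet microRNA that restrains exocytosis of insulin and is needed for a normal β-cell mass in mice. Its promoter region at chr1:74900474-74902534 had 58.7, 60.9 and 60.9 CPM in Chd3/4Δβ, against 74.1, 74.3, 68.6 and 78.6 CPM in Control. The groups did not overlap, but the difference was small (log2 fold change -0.30 ± 0.09, adjusted p = 0.011), was not called, and was 0.08 with cyclic loess scaling. It stayed negative with TMM and RLE factors, which moved the median of all listed regions down, from 0.56 to 0.35 and 0.25. Mir200c, of a family that holds epithelial cells together by repressing Zeb1 and Zeb2, had 34.4, 38.9 and 41.7 CPM in Chd3/4Δβ, against 50.3, 50.2, 54.3 and 64.0 CPM in Control at its promoter (log2 fold change -0.52 ± 0.12, adjusted p = 0.00066). The groups were again apart, and the change was below the cut of 1.

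Mir7-2 gives miR-7a, a brake on insulin secretion that is abundant in endocrine cells. All of its 5 members, spread from 9795 bases upstream to 1927 bases downstream of the start, had negative log2 fold changes, from -0.76 to -0.39, and none was called. The region 3082 bases upstream had 24.6, 29.0 and 45.1 CPM in Chd3/4Δβ, against 51.4, 57.3, 54.8 and 56.8 CPM in Control (log2 fold change -0.76 ± 0.15, adjusted p = 0.0003). Replicate 3 was the highest Chd3/4Δβ library at each of the 5 regions, and at the promoter region (6.45, 7.67 and 10.4 CPM in Chd3/4Δβ, against 10.4, 10.4, 10.8 and 11.7 CPM in Control) the groups met. Without replicate 3, or with RLE factors, the region 3082 bases upstream passed the cut.

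Mir148a, reported in mouse islets to support insulin expression, differed between its near and its far regions. In the region nearest the start, 1701 bases upstream, the values were 58.6, 59.8 and 55.8 CPM in Chd3/4Δβ, against 75.3, 67.4, 70.2 and 76.4 CPM in Control (log2 fold change -0.32 ± 0.10, adjusted p = 0.0079, and 0.05 with cyclic loess scaling). An intergenic region at chr6:51178073-51179229, 91259 bases downstream, had 35.4, 34.8 and 23.4 CPM in Chd3/4Δβ, against 1.47, 2.28, 1.58 and 0.943 CPM in Control (log2 fold change 4.38 ± 0.23, adjusted p = 3.7e-12). Another 99359 bases downstream had 16.7, 16.5 and 10.7 CPM in Chd3/4Δβ, against 4.08, 4.07, 3.01 and 2.50 CPM in Control (log2 fold change 2.13 ± 0.21, adjusted p = 2.0e-08), and another, farther out, was at 0.95 and not called. The distal regions opened while the near region did not. A microRNA is the nearest annotated start here, and which gene such a region serves was not tested.

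**Figure D2:**
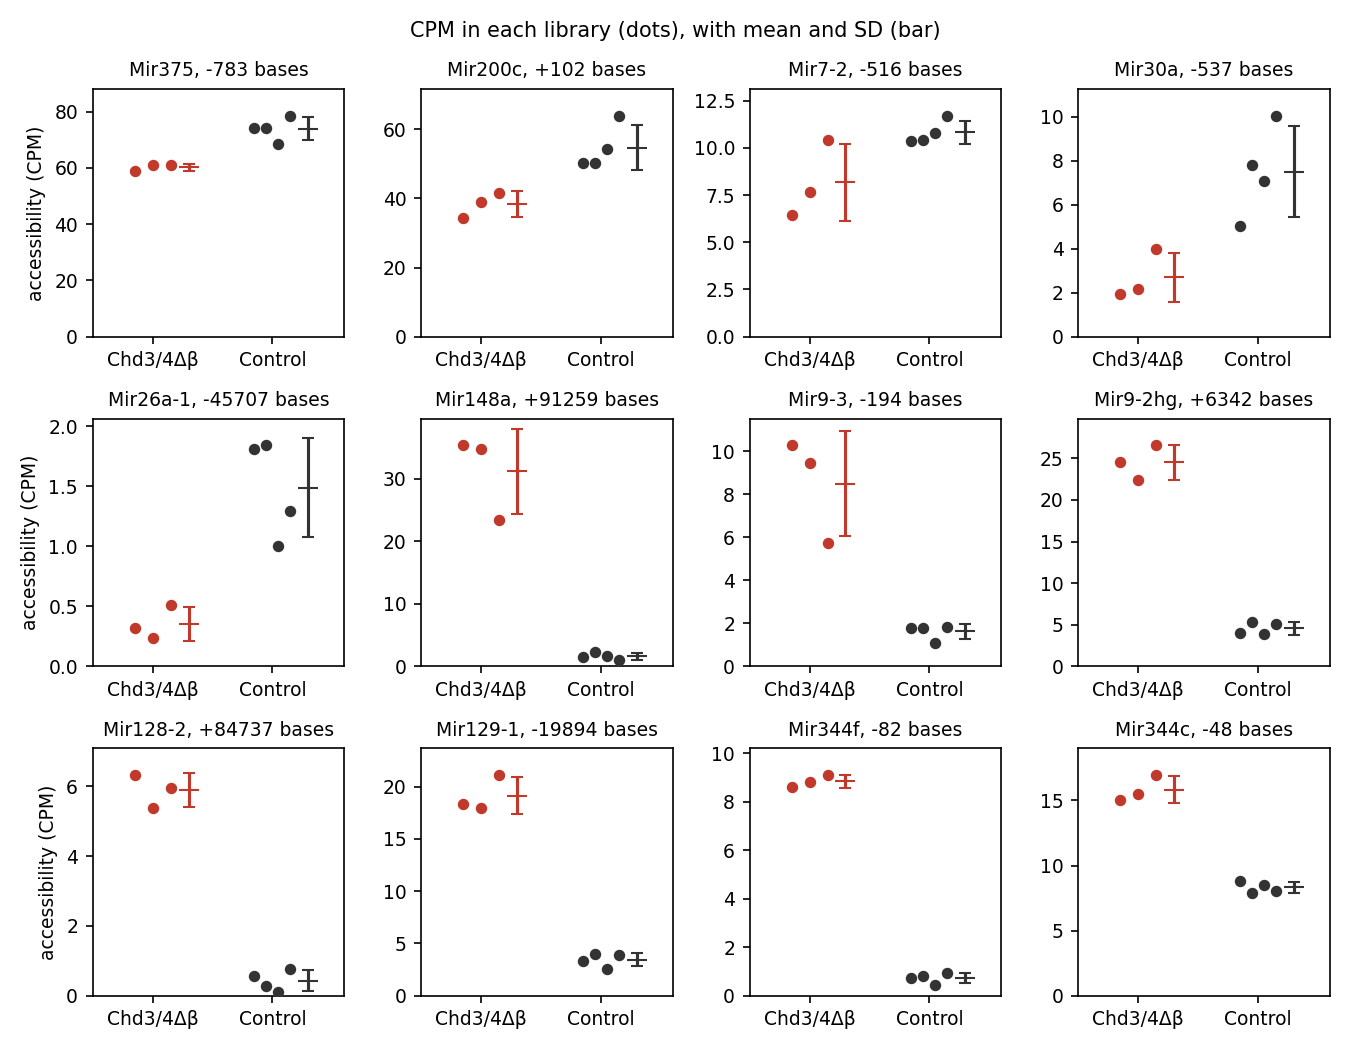
Accessibility in CPM (vertical axis, from 0) of 12 named regions in each library, with dots for the 3 Chd3/4Δβ libraries (left, red) and the 4 Control libraries (right, black) and bars for mean and SD. Titles give the distance of the region's centre from the annotated start. The groups overlap only at the Mir7-2 promoter region. Mir375 lay lower in Chd3/4Δβ here and slightly higher with cyclic loess scaling. The Mir375 values, at 58.7 to 60.9 CPM in Chd3/4Δβ and 68.6 to 78.6 CPM in Control, differ least in fold, and the Mir148a distal region, at 23.4 to 35.4 CPM in Chd3/4Δβ and 0.943 to 2.28 CPM in Control, differs most.

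The miR-30 genes, abundant in β cells and epithelia, had negative log2 fold changes at all 4 of their regions, 3 of them called. Mir30a had 1.95, 2.16 and 3.99 CPM in Chd3/4Δβ, against 5.05, 7.81, 7.08 and 10.1 CPM in Control at its promoter region, which covers the hairpin (log2 fold change -1.54 ± 0.26, adjusted p = 4.0e-05). Mir30c-1, in the Nfyc gene, had 3.07, 3.80 and 4.56 CPM in Chd3/4Δβ, against 6.35, 8.19, 8.75 and 7.94 CPM in Control (log2 fold change -1.06 ± 0.20, adjusted p = 0.00014), a call lost without Chd3/4Δβ replicate 1 (log2 fold change -0.92) or without Control replicate 3 (just under the cut). At both, the highest Chd3/4Δβ library was replicate 3. A region assigned to Mir30f, 1000 bases upstream of it and also in Nfyc, had 0.250, 0.744 and 0.844 CPM in Chd3/4Δβ, against 1.64, 2.66, 2.53 and 2.66 CPM in Control (log2 fold change -2.04 ± 0.37, adjusted p = 7.6e-05). The region assigned to Mir30e, 8376 bases upstream, had 8.11, 11.2 and 15.8 CPM in Chd3/4Δβ, against 19.1, 19.2, 16.1 and 13.3 CPM in Control, and the groups overlapped (log2 fold change -0.54 ± 0.20, adjusted p = 0.022).

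Mir26a-1 lies in an intron of Ctdspl, which encodes a small phosphatase that is co-transcribed with it. Of its 5 regions, 4 fell and 1 rose. The nearest, 2018 bases upstream, had 1.70, 2.13 and 1.46 CPM in Chd3/4Δβ, against 4.20, 3.47, 4.88 and 3.18 CPM in Control (log2 fold change -1.13 ± 0.25, adjusted p = 0.00066). The region 24387 bases upstream had 1.11, 1.00 and 0.731 CPM in Chd3/4Δβ, against 4.71, 3.80, 3.78 and 3.04 CPM in Control (log2 fold change -1.96 ± 0.27, adjusted p = 3.0e-06). Regions 26346 and 45707 bases upstream had log2 fold changes of -1.27 and -2.15, and 1 at 42511 bases upstream had 1.81. The 9 other listed regions in Ctdspl that were assigned to other starts divided alike, with 2 more and 5 less accessible. Mir26b, whose mature sequence has the same seed, was at 49.5 ± 3.26 CPM in Chd3/4Δβ and 61.6 ± 0.652 CPM in Control (SD, n = 3 and 4) and was not called (log2 fold change -0.32, and 0.00 with cyclic loess scaling).

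The islet list also held gains at microRNAs known from stress and inflammation. Mir146, which gives miR-146a, a feedback inhibitor of NF-κB signalling, had 3.09, 3.28 and 2.08 CPM in Chd3/4Δβ, against 0.113, 0.217, 0.191 and 0.353 CPM in Control at an intergenic region 5402 bases downstream (log2 fold change 3.54 ± 0.36, adjusted p = 4.2e-08). Mir34a, a target of p53, had 7.18, 7.13 and 3.09 CPM in Chd3/4Δβ, against 2.21, 2.12, 2.06 and 1.08 CPM in Control at a region 1413 bases upstream (log2 fold change 1.70 ± 0.29, adjusted p = 4.1e-05). The Chd3/4Δβ value of 3.09 CPM in replicate 3 lay nearest to Control. Mir34c, whose hairpin lies inside an open promoter region, had 22.6, 20.3 and 15.1 CPM in Chd3/4Δβ, against 23.3, 27.4, 26.4 and 22.8 CPM in Control and was not called (log2 fold change -0.36 ± 0.14, adjusted p = 0.04).

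Mir29a, which in β cells is known to repress the lactate and pyruvate transporter gene Slc16a1, had 4 intergenic regions with positive log2 fold changes, 2 of them called. At 32641 bases downstream the values were 1.499, 1.64 and 1.46 CPM in Chd3/4Δβ, against 0.284, 0.380, 0.430 and 0.236 CPM in Control (log2 fold change 2.25 ± 0.33, adjusted p = 6.6e-06, and 0.20 with cyclic loess scaling, which ends the call), and at 51088 bases downstream the log2 fold change was 1.74 with overlapping groups. Mir29b-2 was at 6.66 ± 1.68 CPM in Chd3/4Δβ and 8.99 ± 0.934 CPM in Control and was not called (log2 fold change -0.45 ± 0.19, adjusted p = 0.05). Mir148b, in Copz1, gave 2 gains (1.14 and 1.09) and 1 loss (-1.33) close together, all at regions of 0.394 to 2.18 CPM. Both Mir148b gains lost their call with TMM, RLE and cyclic loess scaling and without 1 of several libraries. Mir21c, which has the seed of miR-21a, had 8 regions, of which 3 between 89776 and 108599 bases downstream rose, with log2 fold changes of 1.11, 1.44 and 2.84, the smallest of which lost its call with TMM, RLE and cyclic loess scaling. A let-7 gene, Mir7j, fell at a region 94975 bases upstream (log2 fold change -1.02 ± 0.31, adjusted p = 0.0074), a call lost without Chd3/4Δβ replicate 3 (-0.90) or without Control replicate 1 or 2, and the promoter region of another, Mir7k, had 3.13, 3.41 and 7.88 CPM in Chd3/4Δβ, against 9.19, 8.57, 7.32 and 7.45 CPM in Control (log2 fold change -0.81 ± 0.26, adjusted p = 0.011), with replicate 3 inside the Control range; without that library it passed the cut (-1.31). The Mir130a and Mir130c regions were not called, at log2 fold changes of -0.51 and 0.65.

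Neuronal microRNAs had 21 members at 12 genes. Of these 14 were more accessible (66.7%, beside 37.0% of all listed regions), 1 was less accessible (4.76%, beside 20.4%) and 6 were uncalled, and their median log2 fold change was 1.22, beside 0.56 over all listed regions. The count of gains was 11 with TMM (52.4%, beside 31.6% of all listed regions), 9 with RLE (42.9%, beside 29.3%) and 10 with cyclic loess scaling (47.6%, beside 22.9%). The count of losses was 3 with TMM (14.3%, beside 27.9%), 4 with RLE (19.05%, beside 31.7%) and 2 with cyclic loess scaling (9.52%, beside 25.6%). The list was not tested as a set. The list shares its miR-9, miR-124 and miR-153 genes with the islet list. The summed mesenchymal markers were at 19.4 CPM in Chd3/4Δβ and 4.89 CPM in Control and the summed α-cell markers at 42.1 CPM in Chd3/4Δβ and 44.1 CPM in Control, and their part in these gains was not tested.

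The miR-9 genes opened at several places. Mir9-3, on chromosome 7, had 10.3, 9.47 and 5.74 CPM in Chd3/4Δβ, against 1.76, 1.79, 1.100 and 1.81 CPM in Control at a region at chr7:79504699-79505442 that covers the hairpin (log2 fold change 2.40 ± 0.24, adjusted p = 3.0e-08). Its host transcript Mir9-3hg had 4.79, 4.36 and 2.70 CPM in Chd3/4Δβ, against 1.99, 1.36, 1.29 and 2.14 CPM in Control at the promoter (log2 fold change 1.22 ± 0.27, adjusted p = 0.00053). An intronic region of Mir9-2hg, the host of the copy on chromosome 13, had 24.6, 22.4 and 26.6 CPM in Chd3/4Δβ, against 3.97, 5.37, 3.83 and 5.09 CPM in Control (log2 fold change 2.42 ± 0.17, adjusted p = 1.1e-10). A second Mir9-2hg region, 2731 bases upstream, was at 4.69 ± 0.365 CPM in Chd3/4Δβ and 2.41 ± 0.182 CPM in Control (log2 fold change 0.96, not called). The Mir9-3hg call was lost with RLE factors (log2 fold change 0.90). Every Chd3/4Δβ library exceeded every Control library at all 4 regions, as in 49.3% of all listed regions. Replicate 3 was the lowest of its group at both regions on chromosome 7.

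The Mir9-3hg region holds the whole RefSeq promoter window of that transcript, from 250 bases before to 50 bases after its start on the plus strand (GRCm38.p6, chr7:79499776-79500075). It is printed to show the sequence under the gain, with capitals for matches to the cyclic AMP response element TGACGTCA and the GC box GGGCGG, read on both strands.
Mir9-3hg promoter: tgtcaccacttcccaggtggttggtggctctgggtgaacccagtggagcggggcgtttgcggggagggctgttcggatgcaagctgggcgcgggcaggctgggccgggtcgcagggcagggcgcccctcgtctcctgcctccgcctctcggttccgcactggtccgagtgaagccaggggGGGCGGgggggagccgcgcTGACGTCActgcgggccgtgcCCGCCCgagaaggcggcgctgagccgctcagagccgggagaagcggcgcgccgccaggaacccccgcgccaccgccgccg
The window had 1 match to TGACGTCA, at base 200, and 2 to GGGCGG, at bases 181 and 221, which do not overlap it. Of 32851 promoter windows of this length, 1.79% held TGACGTCA and 35.7% held GGGCGG. An E-box, CANNTG, matched once, as in 72.3% of windows that held at least 1. Neither the RE1 parts TTCAGCACC and GGACAG nor the homeodomain core TAAT were found in this window, letters that 0.371%, 22.2% and 58.0% of windows held. The window had 35 CpG dinucleotides, and its CpG observed-over-expected ratio of 0.84 was above that of 82.4% of windows.

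The miR-124 genes, the most neuronal of the list, were divided. Mir124a-3 had 27.3, 27.0 and 13.9 CPM in Chd3/4Δβ, against 9.93, 11.8, 9.71 and 9.85 CPM in Control at its promoter (log2 fold change 1.15 ± 0.19, adjusted p = 2.4e-05), and the call was lost with TMM and RLE factors. The host transcript Mir124a-1hg had 13.3, 12.9 and 9.396 CPM in Chd3/4Δβ, against 4.14, 5.16, 4.54 and 5.02 CPM in Control at a promoter region (log2 fold change 1.34 ± 0.18, adjusted p = 1.9e-06), and a second promoter region was not called (0.66). Mir124-2hg went the other way without a call, at 1.09, 1.64 and 1.13 CPM in Chd3/4Δβ, against 2.10, 2.01, 2.25 and 2.73 CPM in Control (log2 fold change -0.82 ± 0.28, adjusted p = 0.018). It passed the cut as a loss with TMM and RLE factors and without Chd3/4Δβ replicate 2.

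Regions near the genes of miR-128, miR-129 and miR-153, known in neurons for restraining excitability or synaptic release, gained accessibility at distance. Mir129-1 had 18.3, 17.96 and 21.2 CPM in Chd3/4Δβ, against 3.35, 3.96, 2.58 and 3.94 CPM in Control at a region 19894 bases upstream (log2 fold change 2.46 ± 0.18, adjusted p = 2.3e-10). Mir128-2 had 6.34, 5.39 and 5.96 CPM in Chd3/4Δβ, against 0.567, 0.271, 0.0956 and 0.778 CPM in Control at an intergenic region 84737 bases downstream (log2 fold change 3.63 ± 0.34, adjusted p = 1.3e-08). A second, at the end of its host gene Arpp21, had 3.79, 3.67 and 3.38 CPM in Chd3/4Δβ, against 0.681, 1.14, 0.526 and 0.754 CPM in Control (log2 fold change 2.23 ± 0.29, adjusted p = 9.5e-07). The gene Mir129b had 2.43, 1.77 and 2.08 CPM in Chd3/4Δβ, against 0.624, 0.380, 0.574 and 0.377 CPM in Control (log2 fold change 2.13 ± 0.32, adjusted p = 9.1e-06), a call lost with cyclic loess scaling (0.81). None of these regions touched the hairpin. The groups were apart at each, as in 49.3% of all listed regions, which were selected for a difference between these groups. The Mir129b region and the more distant Mir128-2 region were under 1 CPM in every Control library, so they could be listed only through Chd3/4Δβ.

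Mir153, inside Ptprn2, which encodes a protein of insulin secretory granules, had 10.9, 10.6 and 10.4 CPM in Chd3/4Δβ, against 3.80, 4.61, 4.35 and 5.14 CPM in Control at an intronic region 4822 bases downstream (log2 fold change 1.24 ± 0.18, adjusted p = 3.7e-06), a call lost with RLE factors (0.93). Its other region, 5887 bases upstream, was not called (-0.89). Mir219a-2, known from oligodendrocytes, had 1.59, 1.74 and 1.80 CPM in Chd3/4Δβ, against 2.33, 3.31, 2.82 and 2.71 CPM in Control and was not called (log2 fold change -0.71 ± 0.25, adjusted p = 0.022), although it passed the cut with RLE factors (-1.03).

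Mir218-2, known from motor neurons, lies in Slit3, which encodes an axon guidance ligand, and had 6 intronic regions. The strongest gain, 26596 bases upstream, had 9.02, 10.8 and 7.76 CPM in Chd3/4Δβ, against 2.33, 2.33, 2.53 and 2.80 CPM in Control (log2 fold change 1.87 ± 0.20, adjusted p = 6.5e-08). Regions at 50728 bases downstream, 22960 bases downstream and 12272 bases upstream rose by 1.41, 1.06 and 1.04, but the first of these calls was lost with cyclic loess scaling (0.06) and the other 2 with TMM, RLE and cyclic loess scaling and without 1 of several libraries. The 1 loss, 31706 bases upstream (log2 fold change -1.13 ± 0.30, adjusted p = 0.0032), was lost as a call without Control replicate 4 or Chd3/4Δβ replicate 1. The 9 other listed regions inside Slit3 held 6 gains and no loss.

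**Figure D3:**
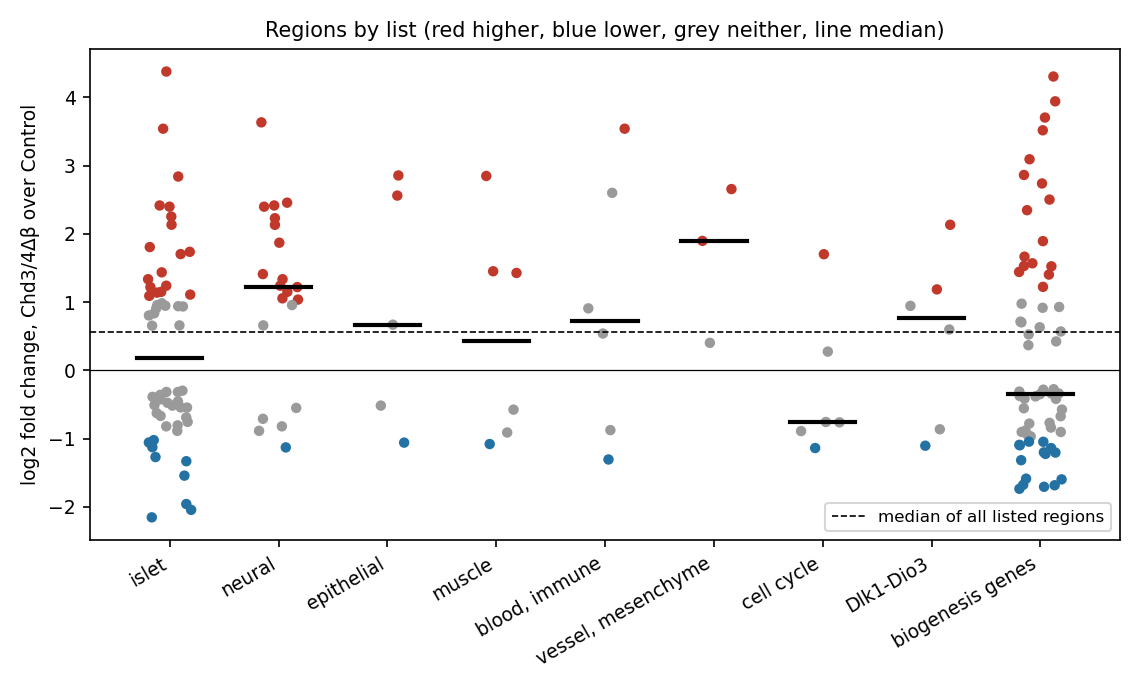
Log2 fold change, Chd3/4Δβ over Control (vertical axis), of every member of each list and of the regions of microRNA biogenesis genes. Dots are regions, red where more accessible, blue where less accessible and grey where uncalled; black lines are medians and the dashed line is the median of all listed regions, 0.56. The neural list has its median at 1.22, the islet list at 0.18 and the biogenesis genes at -0.34; lists with 6 regions or fewer carry little weight.

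The other lists were small, with 6 regions or fewer each. Their counts were not tested and stand beside 37.0% more and 20.4% less accessible over all listed regions. The epithelial list had 5 regions, with 2 gains and 1 loss: Mir203, known for repressing p63 in skin, had 5.88, 3.98 and 5.18 CPM in Chd3/4Δβ, against 0.964, 0.488, 1.00 and 0.424 CPM in Control (log2 fold change 2.86 ± 0.30, adjusted p = 7.0e-08), and the host transcript Mir205hg had a gain of 2.56 and a loss of -1.06. The muscle list had 6 regions, with 3 gains and 1 loss, led by Mir133c inside Med27 with 8.49, 6.54 and 6.92 CPM in Chd3/4Δβ, against 0.908, 1.47, 0.956 and 0.825 CPM in Control (log2 fold change 2.85 ± 0.24, adjusted p = 2.9e-09). The vessel and mesenchyme list had 3 regions on chromosome 18, of which 2 rose, the larger near Mir145b with 2.29, 3.57 and 2.81 CPM in Chd3/4Δβ, against 0.964, 0.326, 0.0956 and 0.471 CPM in Control (log2 fold change 2.66 ± 0.40, adjusted p = 7.7e-06). The blood and immune list had 6 regions with 1 gain, at Mir146, and 1 loss, near Mir181a-2 (-1.31). A region near Mir142hg, whose microRNA is specific to blood cells, had 11.2, 1.62 and 0.900 CPM in Chd3/4Δβ, against 1.25, 0.380, 0.622 and 0.848 CPM in Control, open in replicate 1 of Chd3/4Δβ alone, and was not called (log2 fold change 2.60 ± 0.98, adjusted p = 0.07). The cell cycle clusters had 6 regions with 1 gain, near Mir363 (1.70), and 1 loss. For liver, gut and acinar cells there was 1 region, near Mir216b, at 1.01, and its call was lost with TMM, RLE and cyclic loess scaling and without 1 of several libraries. The Dlk1-Dio3 list had 6 regions, but 5 of them belonged to Mir496b on chromosome 19, outside that imprinted cluster, where the largest gain was 2.13 and lost its call with cyclic loess scaling (0.69). The sixth, near Mir494, fell (-1.10). No member carried a microRNA number of the Hox clusters.

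Hairpin coordinates were held for only part of the member genes, and members of the others, Mir124a-3 among them, could not be assessed. Of the assessed members, only 43 touched the hairpin they were assigned to, each at a different gene, and 36 covered it whole. Of the 43, 10 were more accessible (23.3%, beside 37.0% of all listed regions and 22.5% of those within 1000 bases of a start), 11 less accessible (25.6%, beside 20.4% and 10.2%) and 22 uncalled, with a median log2 fold change of -0.36, close to the -0.34 of the 78 members within 1000 bases of a start. With TMM and RLE factors the gains over hairpins were 6 and 5 and the losses 14 and 14. The 43 members were less open than all listed regions within 1000 bases of a start, with a median of 5.38 CPM in Control, beside 9.13 CPM. The regions singled out here beyond the islet and neural lists were chosen after their values were seen.

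The largest gain over an assessed hairpin was at Mir344f. The Mir344 genes form a cluster of similar hairpins on chromosome 7, known from brain, and 5 of them had a member. Mir344f had 8.59, 8.83 and 9.11 CPM in Chd3/4Δβ, against 0.737, 0.814, 0.430 and 0.943 CPM in Control at chr7:62045962-62046698 (log2 fold change 3.55 ± 0.25, adjusted p = 1.1e-10). Mir344b had 4.66, 3.44 and 3.60 CPM in Chd3/4Δβ, against 1.99, 2.33, 1.24 and 1.56 CPM in Control (log2 fold change 1.15 ± 0.26, adjusted p = 0.00066), a call lost with TMM and RLE factors and without Chd3/4Δβ replicate 1. Each Chd3/4Δβ library lay above every Control library at both hairpins, as in 49.3% of all listed regions. The Mir344f region was under 1 CPM in every Control library, so it could be listed only through Chd3/4Δβ.

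Mir344c had 15.04, 15.5 and 16.99 CPM in Chd3/4Δβ, against 8.85, 7.92, 8.51 and 8.06 CPM in Control (log2 fold change 0.92 ± 0.15, adjusted p = 2.5e-05), and Mir344-2 had 15.4, 15.8 and 20.9 CPM in Chd3/4Δβ, against 10.7, 10.8, 10.9 and 11.4 CPM in Control (log2 fold change 0.66 ± 0.16, adjusted p = 0.0011). Neither reached the cut of 1, although the groups did not overlap. The region nearest Mir344 lay 11118 bases downstream, at 7.43 ± 0.909 CPM in Chd3/4Δβ and 5.21 ± 0.946 CPM in Control (log2 fold change 0.50 ± 0.20, adjusted p = 0.034). The 4 regions over hairpins were centred 42 to 82 bases upstream of the hairpin start. Because the hairpins are near-copies, and it is not given in the sources used here how reads that match several copies were placed, the size of each gain is uncertain.

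Other gains over hairpins were at Mir3105, inside the synaptic scaffold gene Shank2, with 10.7, 9.62 and 6.75 CPM in Chd3/4Δβ, against 1.70, 1.57, 1.43 and 0.919 CPM in Control (log2 fold change 2.74 ± 0.24, adjusted p = 4.6e-09), and at Mir877, an intron of Abcf1, with 3.59, 4.46 and 2.42 CPM in Chd3/4Δβ, against 0.511, 1.14, 1.20 and 0.660 CPM in Control (log2 fold change 2.03 ± 0.31, adjusted p = 1.1e-05). Losses included Mir361, inside the choroideremia gene Chm, with 0.591, 0.821 and 1.01 CPM in Chd3/4Δβ, against 2.89, 2.50, 2.96 and 2.90 CPM in Control (log2 fold change -1.84 ± 0.29, adjusted p = 1.7e-05). At Mir6413 the region touching the hairpin had 0.409, 1.13 and 1.01 CPM in Chd3/4Δβ, against 2.95, 3.31, 3.44 and 3.61 CPM in Control (log2 fold change -2.01 ± 0.32, adjusted p = 1.5e-05), while a region 1520 bases downstream had 1.98, 2.16 and 1.35 CPM in Chd3/4Δβ, against 0.340, 0.597, 0.143 and 0.236 CPM in Control (log2 fold change 2.57 ± 0.38, adjusted p = 5.9e-06, and 0.57 with cyclic loess scaling, which ends the call). A gain and a loss thus lay side by side at the same microRNA.

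**Figure D4:**
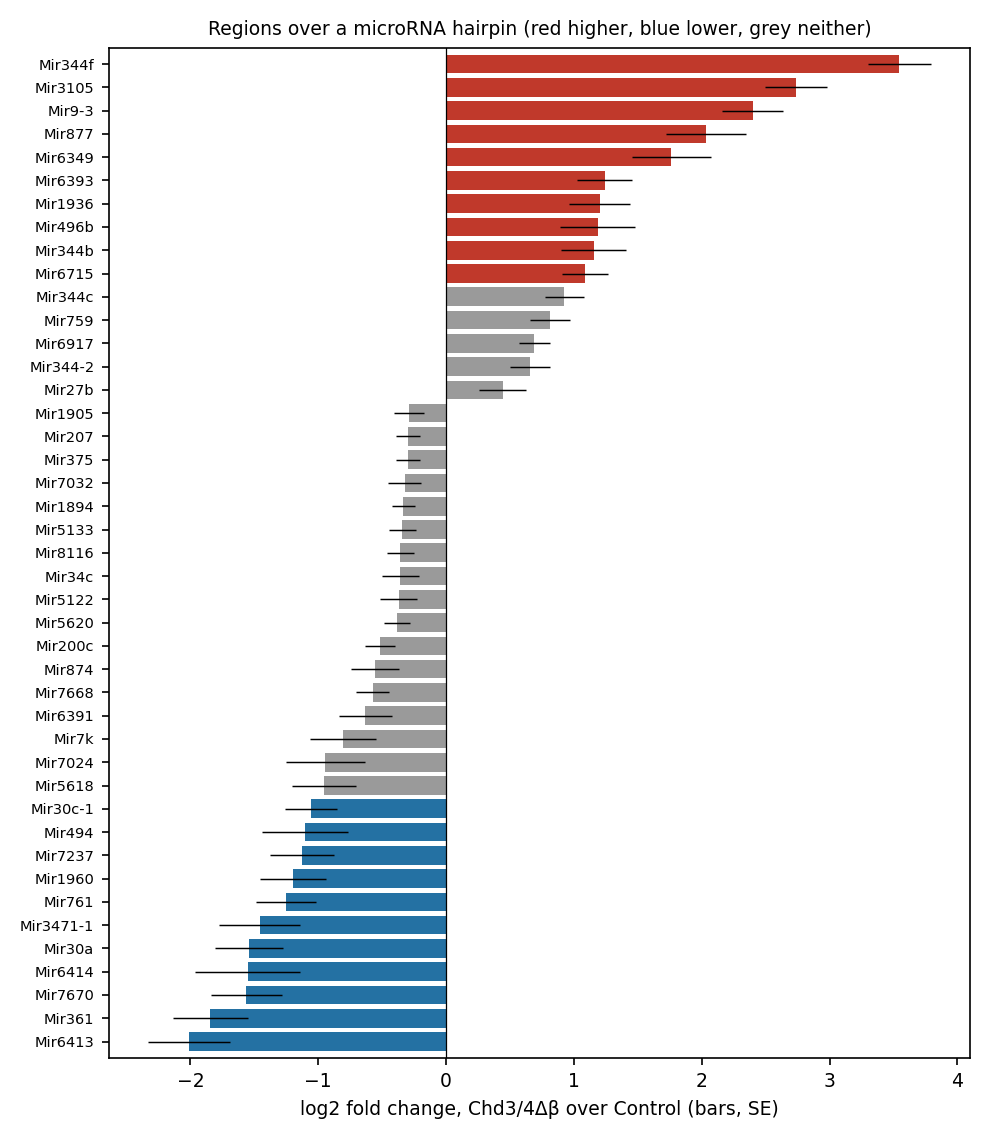
Log2 fold change, Chd3/4Δβ over Control (horizontal axis, lines for SE), of the 43 members that touch a microRNA hairpin, 1 per gene and ordered by value. Members whose gene had no hairpin coordinates are not included. Red bars are called more accessible (10), blue bars less accessible (11) and grey bars uncalled (22). Mir344f is highest at 3.55 and Mir6413 lowest at -2.01. The small negative values of Mir375, Mir207, Mir1894, Mir5133 and Mir5620 turned positive with cyclic loess scaling but not with TMM or RLE factors.

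Where a microRNA gene had many members, they mostly lay along a large host gene. The 32 genes with 4 or more members held 175 regions: 14 of them had only gains among called regions, 2 only losses, 14 both and 2 no call. Other genes were not divided in this way, and gains outnumbered losses over all listed regions too (37.0% and 20.4%). Mir6239, in Gpc6, which encodes a cell surface glypican, had the most, with 10 regions up to 472723 bases from its start. Of these 8 rose and none fell, with log2 fold changes of 0.58 to 2.41. The strongest, 294410 bases downstream, had 4.38, 3.77 and 3.54 CPM in Chd3/4Δβ, against 0.964, 0.271, 0.622 and 0.966 CPM in Control (log2 fold change 2.41 ± 0.31, adjusted p = 1.0e-06). Of the 8 calls, 5 were lost with TMM, RLE or cyclic loess scaling, and those at 8733 bases upstream and 279220 bases downstream also when a single library was left out. Of 13 other listed regions in Gpc6, 5 rose and 2 fell.

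Mir346, in Grid1, which encodes a glutamate receptor subunit of the δ family, had 7 regions with 5 gains and 1 loss. A region 132348 bases downstream had 3.50, 3.72 and 3.43 CPM in Chd3/4Δβ, against 0.113, 0.217, 0.430 and 0.283 CPM in Control (log2 fold change 3.70 ± 0.34, adjusted p = 8.2e-09). The loss, 20313 bases upstream, had 1.23, 1.00 and 1.91 CPM in Chd3/4Δβ, against 2.95, 2.93, 3.30 and 4.01 CPM in Control (log2 fold change -1.32 ± 0.28, adjusted p = 0.00038). The most open, 114618 bases downstream, had 22.1, 25.1 and 30.7 CPM in Chd3/4Δβ, against 10.9, 12.6, 15.2 and 13.2 CPM in Control and lay at the cut without a call (log2 fold change 1.00 ± 0.15, adjusted p = 8.9e-06), which it passed without 1 of several libraries.

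Other large groups were mixed. Mir5623, in Atrnl1, had 3 gains and 2 losses among 8 regions, Mir7656, in Slc9a9, 2 and 2 among 8, Mir3092, in Fndc3b, 2 and 0 among 8, and Mir1951, in BC052040, 4 and 1 among 7. Mir669h, in or near Sfmbt2, had 4 gains and no loss among 6 regions. The 2 other listed regions inside Sfmbt2 were both losses. Mir669h belongs to a family of near-identical copies, so its assignment is uncertain. Losses without a gain were found at Mir874, in Klhl3 (2 of 4 regions), and Mir7659, in Agpat3 (1 of 4). The other listed regions of these hosts included gains, 2 of 3 in Klhl3 with no loss, and 1 gain and 1 loss among 6 in Agpat3. In Slc9a9 the other 10 regions held 1 gain and 7 losses, in Fndc3b the other 19 held 5 and 5, in Atrnl1 the other 7 held 3 and 2, and in BC052040 the other 2 held 1 loss and no gain. The 4 regions of Mir1192, in or near Klf9, ran from -0.93 to -0.63 and none was called.

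**Figure D5:**
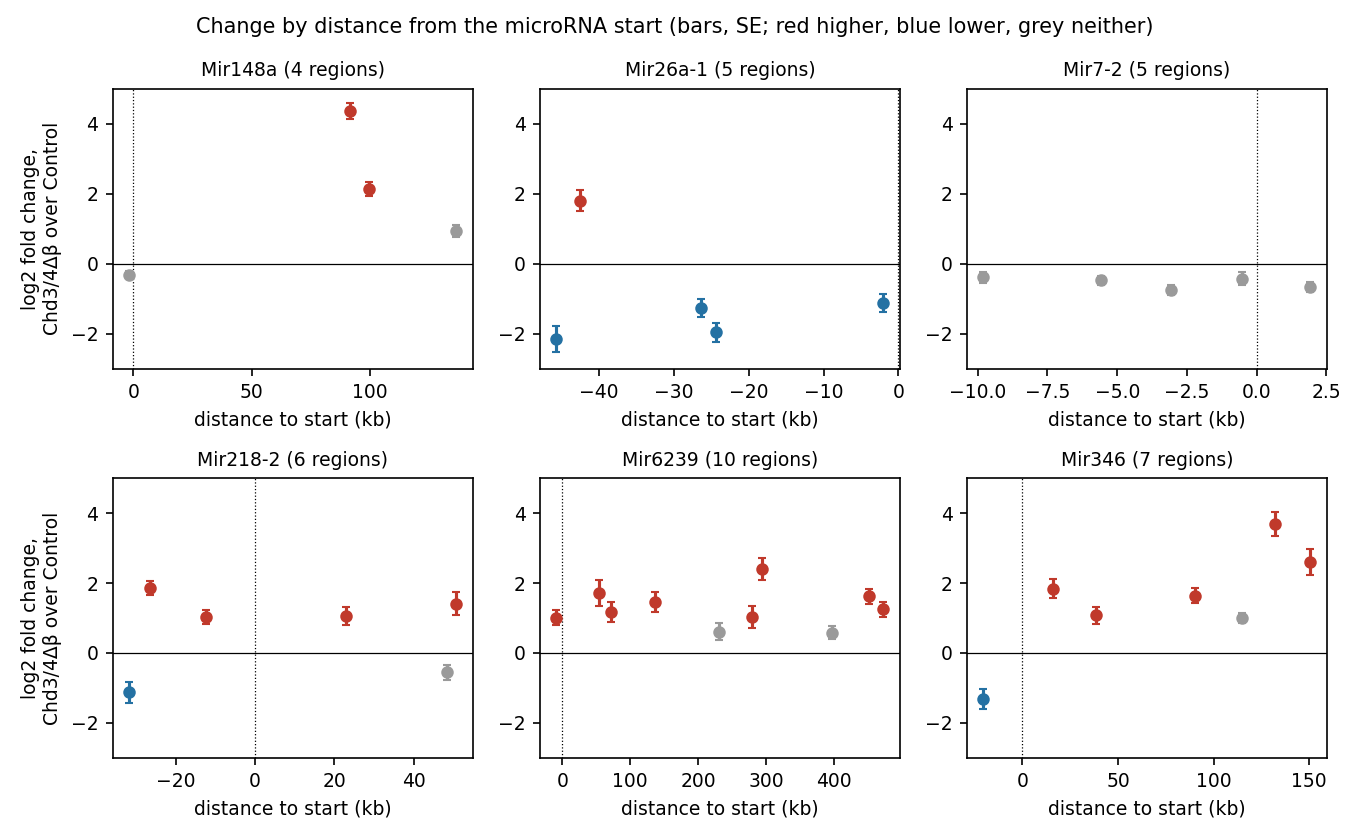
Log2 fold change, Chd3/4Δβ over Control (vertical axis, bars for SE), against the distance of each region's centre from the annotated microRNA start in kilobases (horizontal axis, a different range in each panel) for 6 microRNA genes. Red dots are called more accessible, blue dots less accessible and grey dots uncalled. Mir148a shows distal gains of 4.38 and 2.13, Mir26a-1 has 4 losses and 1 gain, the 5 Mir7-2 regions are all slightly negative, and the 10 Mir6239 regions are all positive.

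Genes of microRNA biogenesis and action had 63 listed regions at 21 genes, with 17 more accessible (27.0%, beside 37.0% of all listed regions), 15 less accessible (23.8%, beside 20.4%) and 31 uncalled. Their median log2 fold change was -0.34, beside 0.56 over all listed regions. At Dicer1, whose product cuts the hairpin precursor, the promoter regions were at 19.7 ± 3.13 CPM in Chd3/4Δβ and 36.7 ± 2.99 CPM in Control (log2 fold change -0.90 ± 0.13, adjusted p = 4.3e-06) and 42.7 ± 6.08 CPM in Chd3/4Δβ and 53.1 ± 2.53 CPM in Control (log2 fold change -0.31). Distal regions of Dicer1 opened, the strongest 9641 bases upstream with 2.57, 1.95 and 1.69 CPM in Chd3/4Δβ, against 0.113, 0.0543, 0.191 and 0.0707 CPM in Control (log2 fold change 4.31 ± 0.42, adjusted p = 1.6e-08), a call lost with cyclic loess scaling (0.96). Distances at Dicer1 are to the nearest annotated start, which was not the same start for all of these regions. Regions 32457, 23120 and 86043 bases downstream of another start rose by 3.94, 2.86 (0.80 with cyclic loess scaling, which ends the call) and 2.74. An exonic region 3198 bases downstream of a further start fell (-1.71). The promoter region centred 37 bases upstream of its own nearest start passed the cut as a loss with TMM and RLE factors and without Chd3/4Δβ replicate 3.

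Among Argonaute genes, an intergenic region upstream of Ago2, the slicing Argonaute, had 4.09, 3.18 and 6.58 CPM in Chd3/4Δβ, against 0.624, 0.651, 0.956 and 0.895 CPM in Control (log2 fold change 2.50 ± 0.30, adjusted p = 3.2e-07), and an intronic region of Ago3 had 0.568, 0.359 and 0.281 CPM in Chd3/4Δβ, against 1.76, 1.85, 1.100 and 1.11 CPM in Control (log2 fold change -1.74 ± 0.36, adjusted p = 0.00028). Another intronic region of Ago3 went the other way, with 3.13, 2.87 and 1.74 CPM in Chd3/4Δβ, against 0.964, 0.760, 0.765 and 1.08 CPM in Control (log2 fold change 1.53 ± 0.30, adjusted p = 0.00017). Tarbp2, the partner of Dicer, had 117, 103 and 91.1 CPM in Chd3/4Δβ, against 161, 154, 154 and 140.4 CPM in Control at its promoter and was not called (-0.56). Tut4, which adds uridines to let-7 precursors, had 4.59, 4.77 and 2.81 CPM in Chd3/4Δβ, against 0.227, 0.163, 0.717 and 0.189 CPM in Control in an intron (log2 fold change 3.70 ± 0.38, adjusted p = 4.7e-08). Its relative Tut7 had 1 gain and 2 losses, all intronic. The gain had 8.61, 9.98 and 8.55 CPM in Chd3/4Δβ, against 1.87, 3.42, 3.97 and 2.92 CPM in Control (log2 fold change 1.57 ± 0.22, adjusted p = 2.5e-06), and the larger loss was -1.60, at a less open region. The Dicer cofactor gene Prkra had 3.52 at an intergenic region, a call lost with cyclic loess scaling (0.87), and a loss of -1.14, lost as a call without Chd3/4Δβ replicate 1 (-0.96). Of the Tnrc6 genes, which encode the GW182 proteins that silence targets, Tnrc6b had a gain of 3.09 (0.26 with cyclic loess scaling, which ends the call), Tnrc6a a gain of 1.89 and Tnrc6c a loss of -1.68 as their largest called changes. Tnrc6b had 2 gains and 2 losses, Tnrc6a 2 gains and 1 loss, and Tnrc6c 4 losses and no gain. Largest called changes in other genes were losses at Adar (-1.59), Srrt (-1.32) and Ddx17 (-1.10) and a gain near Ran (1.67), which turned to -0.14 with cyclic loess scaling.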

How the data were processed

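ATAC-seq libraries of sorted β cells (3 Chd3/4Δβ, 4 Control) were grouped by the genotype in their labels. The authors deposited raw read counts per region and the same values scaled by library size (CPM), together with p-values and FDR from their generalized linear model, for 61288 regions; the fold changes and p-values of that model were not used as results. The deposited p-value and FDR columns served only to find that 109675 regions had been tested by the authors, of which 55.9% are listed, each at an FDR under 0.05. Regions had been kept at CPM above 1 in 3 libraries. How reads were aligned and peaks were called is not given in the sources used here. Processing notes of the submitters name build GRCm39, but the deposited distances of 537 of 537 regions matched RefSeq hairpins of GRCm38.p6 within 5 bases, so coordinates are given as GRCm38. The centre of a region, its class and the nearest start are as deposited.

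Counts of all listed regions were fitted with edgeR 4.0.16 (R 4.3.3; glmQLFit and glmQLFTest, robust, no covariate) with library sizes taken from the ratio of deposited count to CPM, 17629713 to 44026681 reads, of which 48.1% to 49.6% fell in listed regions. P-values were adjusted by Benjamini-Hochberg over 109675 regions, and two-sided tests were called at an adjusted p under 0.05 with a log2 fold change of at least 1 in size. Values are CPM per library, mean ± SD over libraries, and log2 fold change ± SE of Chd3/4Δβ over Control. The fit was tested on simulated data first. Alternatives were TMM, RLE and cyclic loess scaling (limma 3.58.1), DESeq2 1.42.0, a minimum of 10 counts, no fold threshold, a replicate block, a limit of 10 kb, and leaving out each library.

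Named regions were the 10 largest gains and 10 largest losses among called members whose groups do not overlap, the 5 most open, every called islet-list region and the nearest region of each other islet-list gene, the largest change of every other list, genes with 4 or more regions (the larger ones singly, the others by counts), and the largest change of each called biogenesis gene. Other neural-list regions, further regions of Dicer1, Ago3, Tut7 and Prkra, the Mir344 genes, Mir3105, Mir877, Mir361, Mir6413, Mir142hg, Mir181a-2 and Mir494 were chosen after their values were seen. Members and lists were chosen with earlier results of these data known. Lists carry no test of their own. Sequences came from RefSeq tables.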

Additional observations from a re-analysis of the deposited data

Results flagged for a closer look

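Among 115 named regions, the Control libraries of 10 held 1 value far from the other 3, measured as the gap to the nearest library over the whole range (above the critical value of Dixon's test for 4 libraries). Chance flags about 1 in 20 groups. The ratios were 0.94 for Mir7-2 at 5571 bases upstream, 0.922 for the Mir9-3 hairpin region, 0.902 for Mir344 at 11118 bases downstream, 0.894 for the Mir124a-3 promoter, 0.881 for the Mir1963 promoter region, 0.875 for Mir6239 at 472723 bases downstream, 0.874 for Mir30f, 0.868 for Mir26a-1 at 42511 bases upstream, 0.862 for Mir34a and 0.847 for Mir361. At Mir7-2 the Control values were 32.2, 32.1, 31.8 and 38.8 CPM, and at Mir34a they were 2.21, 2.12, 2.06 and 1.08 CPM, replicate 4 standing apart in both.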

How the results depend on the processing

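Of 151 values of single regions, DESeq2 and a minimum of 10 counts left every direction and call in place. With TMM factors 12 calls were lost and 3 gained, with RLE factors 16 and 5, and with cyclic loess 23 and 2. Cyclic loess turned the sign of 10 values: Mir148a near the start (0.0475), Mir1894 (0.23), Mir207 (0.16), Mir26b (0.000142), Mir375 (0.0760), Mir5133 (0.0884), Mir5620 (0.0569), Mir6976 (0.13), the Khsrp promoter (0.36) and the region near Ran (-0.14). Counts moved by more than 1.5 times as follows. More accessible members numbered 162 with cyclic loess and 121 within 10 kb; less accessible ones numbered 209 with RLE, 274 with no fold threshold and 63 within 10 kb, where fewer regions were counted. Biogenesis gains were 9 with cyclic loess and 26 with no fold threshold, and losses 23 with RLE and 35 with no fold threshold. Neural gains were 9 with RLE, and neural losses 3 with TMM, 4 with RLE, 2 with cyclic loess and 5 with no fold threshold. Islet gains were 28 and losses 25 with no fold threshold, and islet losses were 14 with RLE. Gains over hairpins were 6 with TMM and 5 with RLE, and losses over hairpins 28 with no fold threshold. Apart from the added regions or calls that the fold threshold and the distance limit imply, the cause was not tested.

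Leaving out each library in turn gave 239 to 258 more accessible and 117 to 153 less accessible members, 17 to 19 biogenesis gains and 13 to 16 losses, 13 to 15 neural gains and 0 to 3 losses, 18 to 20 islet gains and 8 to 11 losses, 8 to 10 hairpin gains and 10 to 12 losses, and 79 to 83 calls among the 84 called named regions. The neural loss near Mir218-2 was lost without Chd3/4Δβ replicate 1 or Control replicate 4, and neural losses rose to 3 without Chd3/4Δβ replicate 2. Groups share replicate numbers in the labels. Deviations of same-numbered libraries from their group means correlated at 0.068, -0.031 and -0.016, and those of other pairs at -0.12 to 0.071. Such values cannot decide whether libraries of the same number were prepared together, and the labels state no pairing. With the replicate block 245 members were more and 136 less accessible, 13 neural regions were more and 0 less accessible, and 6 of the 151 values lost their call. Depth limits the regions near 1 CPM, where a shallow library holds under 20 reads. Counts for the islet and neural lists and for hairpins under other settings were added after seeing the data.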
